A study of Homo sapiens with 58 samples.

Results

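UFM1 and ACTR2 are the genes of 2 3'UTR peaks at which HuR tags were far more frequent in the cytoplasmic than in the nuclear fraction of arsenite-treated cells, and the genes were chosen by that measured difference. HuR, the protein encoded by ELAVL1, binds U-rich and AU-rich RNA. All peaks carrying either gene name in the table of peak signals were used, 46 of 387214 peaks: 14 named UFM1 and 32 named ACTR2. Of the UFM1 peaks 8 lay in the 3'UTR, 5 in introns and 1 in the class Other. Of the ACTR2 peaks 11 lay in the 3'UTR, 19 in introns and 2 in transposable elements (TE).

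UFM1 is a ubiquitin-like protein that the conjugating enzyme UFC1 and the ligase UFL1 attach to target proteins, among them a ribosomal protein at the endoplasmic reticulum, and that UFSP2 removes. ACTR2 encodes ARP2, which with ARP3 forms the actin-like pair of the Arp2/3 complex, the nucleator of branched actin filaments. HuR is mostly nuclear and shuttles to the cytoplasm. It is known for binding introns of precursor RNA and 3'UTRs of mRNA, which it can stabilise, and arsenite stress brings it into stress granules with G3BP1.

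The libraries were made by crosslinking HuR to RNA with UV light (400 and 200 mJ/cm2) in Huh-7.5, a cell line from a human liver carcinoma, immunoprecipitating it and sequencing the bound fragments (CLIP-seq). Cells were mock treated or received sodium arsenite (0.5 mM, 45 min). In 12 libraries, from cells labelled wild type with no APEX reaction, a nuclear or a cytoplasmic fraction was used, with 3 libraries of each fraction and treatment. The other 46 libraries come from lines expressing APEX, a peroxidase that biotinylates proteins near it, labelled APEX-NLS, APEX-NES and APEX-G3BP1 (here NLS, NES and G3BP), each of which underwent the labelling reaction. Input libraries had the HuR immunoprecipitation alone, and enriched libraries had a streptavidin capture as well. For each treatment, NLS and NES had 2 input libraries and 4 enriched ones. Of the G3BP inputs 4 were mock and 5 arsenite, and of the G3BP enriched libraries 6 were mock and 7 arsenite. Whether libraries of a group came from separate cultures, or each line from 1 clone, and which promoter drives APEX, is not given in the sources used here, so the p-values measure the spread between these libraries, which may be technical.

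Values are in CPM, the tags in a peak per 1000000 of the library's own total. Tags in peaks ranged from 235471 to 673322 in the fraction, from 1353 to 484305 in the input and from 519 to 86419 in the enriched libraries. All 12 fraction libraries belong to 1 library set (JL0380), and the APEX libraries to 3 others (JL0361, JL0388 and JL1024). Of 8 hepatocyte markers, 6 had peaks, each with tags in all 12 fraction libraries. NEAT1, a nuclear RNA, had 384.7 to 440.04 CPM in the nuclear and 116 to 138 CPM in the cytoplasmic mock libraries. MALAT1, also a nuclear RNA, overlapped between them, at 2347 to 2739 and 2149 to 2708 CPM. After arsenite NEAT1 had 436 to 626 CPM in the nuclear and 201 to 280.3 CPM in the cytoplasmic libraries, and MALAT1 overlapped again, at 2592 to 3253 and 2403 to 3304 CPM. Tags of nuclear RNA were thus present in the cytoplasmic libraries, and their part in the differences given here was not tested. CLIP tags depend on how much of an RNA a fraction holds and on how often HuR is crosslinked to it, and these cannot be told apart here.

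UFM1 (ENSG00000120686) lies on the plus strand of chromosome 13, at 38349851 to 38363619 in RefSeq's GRCh38.p14 annotation. Over all 58 libraries its peaks held 706 tags, of which 622 were in the 3'UTR. The peak at chr13:38361090-38361110, the one that led to the choice of the gene, held 254 of these 622 (40.8%, Wilson 95% interval 37.0% to 44.7%). It was the first 3'UTR peak of the gene, 2509 nt before the RefSeq gene end. The next in size, chr13:38362603-38362623, lay 1513 nt downstream of it and held 117 tags (18.8%, 15.9% to 22.1%). The other 6 3'UTR peaks held 18 to 80 tags each, and the 5 intron peaks 5 to 27. The order of the peaks differed between groups of libraries. In the nuclear mock libraries chr13:38362480-38362500 held 10 of 21 3'UTR tags (47.6%, Wilson 95% interval 28.3% to 67.6%), and in the mock inputs 0 of 20.

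ACTR2 (ENSG00000138071) lies on the plus strand of chromosome 2, at 65227831 to 65271253. Its peaks held 2709 tags, 2541 of them in the 3'UTR. The largest was chr2:65269850-65269870, with 1122 tags (44.2%, Wilson 95% interval 42.2% to 46.1%), 1383 nt before the gene end. Its neighbour chr2:65269928-65269948, the peak that led to the choice of ACTR2, held 606 tags (23.8%, 22.2% to 25.5%). Upstream of both, chr2:65269513-65269533 held 218 tags and chr2:65269352-65269372 held 133. The remaining 7 3'UTR peaks held 23 to 97 tags each, and the 19 intron peaks 5 to 22. Peaks are 20 nt long as the table gives them, and whether its coordinates count from 0 or 1 is not stated. Peaks of 1 gene share an mRNA and are not independent. RefSeq lists pseudogenes of both genes, so tags could be uncertain where copies match.

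The mock-treated fractions, which had no part in choosing the genes, asked where HuR was bound to them without stress. The 3'UTRs of both mRNAs had several times more HuR tags in the cytoplasmic than in the nuclear fraction, and their introns did not differ detectably. Summed over the 3'UTR, UFM1 had 11.7, 9.09 and 2.90 CPM in the nuclear libraries and 39.4, 64.2 and 68.5 CPM in the cytoplasmic ones. The groups did not overlap, and the lowest cytoplasmic library stood above every nuclear library. The pooled cytoplasmic level was 7.72 times the nuclear one (95% interval 4.89 to 12.8, from 165 and 21 tags). On the scale of log2(CPM + 2.28), the nuclear minus cytoplasmic difference was -2.63 ± 0.34 (SE, n = 3 each, limma adjusted p 6.15e-05).

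For ACTR2 the summed 3'UTR had 20.4, 19.1 and 19.3 CPM in the nuclear and 165, 208 and 234 CPM in the cytoplasmic libraries. The nuclear libraries lay close together, and each cytoplasmic library was far above them. The pooled ratio was 10.4 (95% interval 7.87 to 13.96, 581 and 55 tags) and the log2 difference -3.21 ± 0.18 (SE, n = 3 each, limma adjusted p 5.17e-08). Over all 6090 tested 3'UTR sums, 49.4% were called higher in the cytoplasmic fraction, with a median log2 difference of -0.98, so both genes shared the direction of many other 3'UTRs. Of sums of all classes 29% were called in either direction. The log2 differences of both genes were nearer the low end of the 3'UTR sums. Only 33 of the 6090 sums (0.542%) had a lower difference than ACTR2, and 229 (3.76%) a lower one than UFM1. The constant added to the CPM makes differences of units with few tags smaller, so ranks here and below are not ranks of fold. The ACTR2 peak chr2:65270729-65270749 had a pooled ratio of 23.6 (24 cytoplasmic tags, 1 nuclear) and a difference of -1.96. At chr2:65269850-65269870 these were 11.9 (243 and 20 tags) and -3.19. When libraries were scaled to their tags in peaks, the 3'UTR median was -0.54, ACTR2 was at -2.90 and UFM1 at -2.13, both still called.

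Intron tags of the same genes were few and were not placed on 1 side. The UFM1 introns had 7.29, 8.18 and 2.90 CPM in the nuclear and 7.45, 3.06 and 6.33 CPM in the cytoplasmic mock libraries. The ACTR2 introns had 7.29, 7.27 and 12.6 CPM in the nuclear and 8.51, 6.11 and 10.5 CPM in the cytoplasmic mock libraries. In both genes the groups overlapped. The log2 differences were 0.07 ± 0.38 for UFM1 and 0.07 ± 0.31 for ACTR2 (SE, n = 3 each, limma adjusted p 0.91 and 0.88). With 17 against 16 tags for UFM1, the pooled cytoplasmic to nuclear ratio could lie between 0.437 and 1.95, and with 26 against 24 for ACTR2 between 0.499 and 1.64. Among all 7707 intron sums 25.1% were called higher in the nuclear fraction, with a median of 0.48. For UFM1 21.9% and for ACTR2 22.1% of the intron sums had a lower difference.

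**Figure D1:**
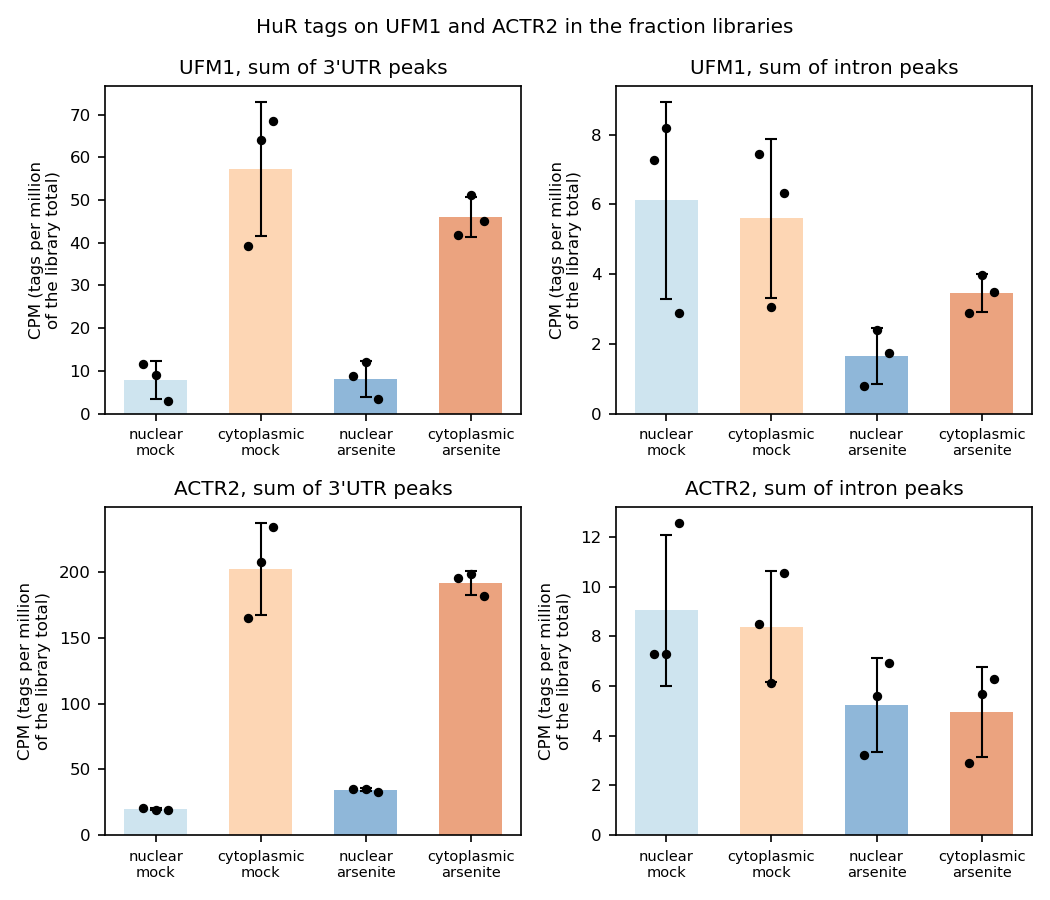
Tags per 1000000 of the library total (CPM) summed over the 3'UTR peaks (left) and the intron peaks (right) of UFM1 (top) and ACTR2 (bottom), in nuclear and cytoplasmic libraries after mock treatment or arsenite. Points are libraries, bars means and whiskers SD (n = 3). The 3'UTR sums of both genes are higher in every cytoplasmic than in every nuclear library under both treatments, and the intron sums stay below 13 CPM.

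The share of 3'UTR tags among each gene's 3'UTR and intron tags does not depend on the library total. For UFM1 the mock libraries gave 54.7% ± 6.05 in the nuclear fraction and 90.4% ± 5.77 in the cytoplasmic one (SD, n = 3 each), which puts the nuclear share -35.6 points from the cytoplasmic one. For ACTR2 it was 68.9% ± 7.21 and 95.97% ± 1.05, a difference of -27.1 points. In each gene the groups did not overlap, and the two-sided exact permutation p was 0.1, the smallest that 3 against 3 allows. Over the nuclear mock libraries UFM1 had 21 3'UTR and 17 intron tags, and ACTR2 55 and 26. After arsenite the nuclear share was 80.6% ± 12.7 for UFM1 and 86.9% ± 4.56 for ACTR2 (SD, n = 3 each). The cytoplasmic share was then 93.1% ± 0.422 and 97.5% ± 0.966 (SD, n = 3 each). In both genes each nuclear arsenite library had a higher share than each nuclear mock library.

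**Figure D2:**
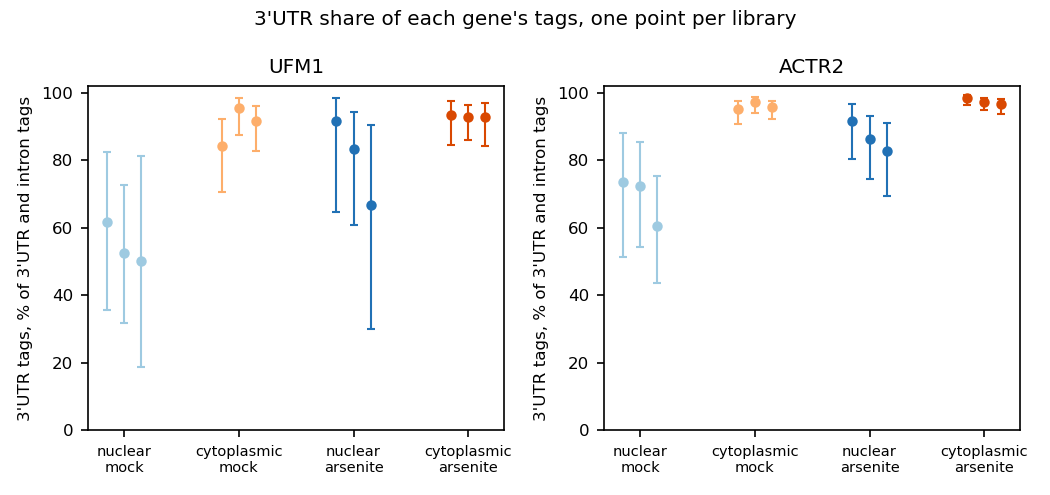
The 3'UTR tags of UFM1 (left) and ACTR2 (right) as a percentage of the gene's 3'UTR and intron tags, one point per fraction library, with Wilson 95% intervals that cover counting error only. Nuclear mock libraries are the lowest in both genes, at 50.0% to 61.5% for UFM1 and 60.6% to 73.7% for ACTR2.

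The 3'UTR peaks tested over the whole table had a median nuclear minus cytoplasmic log2 difference of -0.59 in the mock fractions. Their share with a higher pooled cytoplasmic level is not given here. Peak by peak, all 19 3'UTR peaks of the genes had a higher pooled level in the cytoplasmic than in the nuclear mock fraction. Of the 18 that could be tested, 12 were called higher in the cytoplasmic fraction by limma, 3 of 7 in UFM1 and 9 of 11 in ACTR2. Over all 3'UTR peaks tested the percentage called in that direction was 13.1%. A peak was tested where it had tags in at least 3 of the 6 libraries. Of the called peaks 5 had tags in all 3 nuclear libraries, 1 in UFM1 and 4 in ACTR2. The other 7 had tags in 0 to 2 nuclear libraries and passed the filter through the cytoplasmic libraries, where they are high, so their calls and the counts that include them are a description only. Of the 24 intron peaks 8 were tested and 0 were called by limma, where 0.592% of all intron peaks were. At an unadjusted p under 0.05 the whole table held 30826 peaks. The single-peak calls depended on which libraries were used. Without cytoplasmic mock replicate 2 no peak in the table was called, and without nuclear mock replicate 1 the count over all peaks was 16620, against 4437 (2.82%) with all libraries.

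The UFM1 peak at chr13:38361090-38361110 had 1.46, 1.82 and 0.966 CPM in the nuclear and 16.0, 19.4 and 20.03 CPM in the cytoplasmic mock libraries. Its log2 difference was -2.49 ± 0.28 (SE, n = 3 each, limma adjusted p 0.0019), a call kept in 4 of 6 fits that each left out 1 library, and 447 of 21892 tested 3'UTR peaks (2.04%) had a lower one. At chr13:38362603-38362623 no nuclear mock library had a tag, and the cytoplasmic libraries had 9.57, 13.2 and 19.0 CPM. Against 3 tags over the nuclear group this was at least 13.1-fold higher in the cytoplasmic fraction. UFM1 thus had most of its cytoplasmic mock tags at these peaks and at chr13:38362480-38362500, which missed the threshold at -1.19 ± 0.36 (SE, n = 3 each, limma adjusted p 0.092). The peak chr13:38362337-38362357 had 10 cytoplasmic and no nuclear tags.

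In ACTR2 the largest peak, chr2:65269850-65269870, had 10.2, 4.55 and 7.72 CPM in the nuclear and 74.5, 81.5 and 98.1 CPM in the cytoplasmic mock libraries. Its log2 difference of -3.19 ± 0.28 (SE, n = 3 each, limma adjusted p 0.00054) was exceeded downward by 65 of the 21892 3'UTR peaks (0.297%). The neighbouring peak, chr2:65269928-65269948, had 2.91, 6.36 and 2.90 CPM against 36.2, 44.8 and 44.3 CPM, a difference of -2.83 ± 0.30 (SE, n = 3 each, limma adjusted p 0.0013). At chr2:65269513-65269533 the values were 2.91, 1.82 and 2.90 CPM against 16.0, 23.4 and 34.8 CPM, and the difference was -2.43 ± 0.33 (SE, n = 3 each, limma adjusted p 0.0044). When 1 library was left out, this call was kept in 2 of 6 fits and those of both larger peaks in 4 of 6. None of these peaks had overlapping groups. The smaller chr2:65269352-65269372 had 1.46, 0.909 and 2.90 CPM against 8.51, 14.3 and 10.5 CPM (-1.74 ± 0.32, SE, n = 3 each, limma adjusted p 0.021). It missed the threshold when any of the 6 libraries was left out, with adjusted p up to 0.177. The 2 ACTR2 peaks not called were the first 3'UTR peak, chr2:65268780-65268800, and chr2:65271048-65271068, at -0.60 and -0.62. The 2 largest peaks held 243 and 120 of the 581 cytoplasmic 3'UTR tags of ACTR2 in mock.

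The arsenite-treated fractions supplied the values by which the genes were chosen, so what follows describes them without a test. Both 3'UTRs remained far higher in the cytoplasmic fraction. UFM1 had 8.81, 11.999 and 3.47 CPM in the nuclear and 41.9, 51.2 and 45.2 CPM in the cytoplasmic arsenite libraries. ACTR2 had 35.2, 35.2 and 32.9 CPM in the nuclear and 196, 198 and 182 CPM in the cytoplasmic ones. In neither gene did the groups overlap. The pooled cytoplasmic to nuclear ratio was 5.66 for UFM1 (95% interval 3.85 to 8.60) and 5.58 for ACTR2 (4.62 to 6.77), and the log2 differences were -2.31 and -2.40. Over 6591 3'UTR sums the median was -0.17 and 9.89% were called higher in the cytoplasmic fraction. Just 2 sums had a lower log2 difference than ACTR2 and 3 a lower one than UFM1, again not a rank of fold.

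Of single 3'UTR peaks 0.766% were called higher in the cytoplasmic fraction after arsenite. The chosen UFM1 peak, chr13:38361090-38361110, had 0.801, 2.40 and 0.866 CPM in the nuclear and 19.5, 27.3 and 22.3 CPM in the cytoplasmic libraries, and none of the 27019 3'UTR peaks tested had a lower difference than its -2.81. The chosen ACTR2 peak, chr2:65269928-65269948, had 5.60, 3.20 and 3.47 CPM against 36.8, 47.2 and 33.4 CPM, and 1 peak had a lower difference than its -2.71. The largest ACTR2 peak, chr2:65269850-65269870, had 15.2, 15.2 and 21.7 CPM against 113, 92.7 and 103 CPM, with 4 peaks lower than its -2.43. All 19 3'UTR peaks of the genes were again higher in the cytoplasmic fraction by pooled level. Intron sums stayed low: UFM1 had 0.801 to 2.40 CPM in the nuclear and 2.89 to 3.98 CPM in the cytoplasmic libraries, without overlap, and ACTR2 had 3.20 to 6.93 and 2.89 to 6.26 CPM.

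Mock and arsenite values of the same peaks are given side by side, without a test, since the arsenite values led to the choice of the genes. In the cytoplasmic fraction the UFM1 sum was 57.4 ± 15.7 CPM in mock and 46.1 ± 4.71 CPM after arsenite (SD, n = 3 each), with overlapping libraries. Its first peak, chr13:38361090-38361110, was at 18.4 ± 2.19 and 23.0 ± 3.95 CPM, whereas chr13:38362603-38362623 was at 13.9 ± 4.74 and 6.08 ± 1.67 CPM (SD, n = 3 each). At the latter peak all arsenite libraries lay below all mock libraries (pooled ratio 0.439, 95% interval 0.261 to 0.729, counting error only). The share of all 3'UTR peaks that separate in this way is not given here. At the first peak the libraries overlapped (pooled ratio 1.26, 95% interval 0.902 to 1.79). The first peak accordingly held 33.3% ± 6.28 of the cytoplasmic 3'UTR tags of UFM1 in mock and 49.7% ± 3.42 after arsenite (SD, n = 3 each). In the input libraries it held 45.0% of 20 tags in mock (Wilson 95% interval 25.8% to 65.8%) and 43.6% of 133 after arsenite (35.5% to 52.1%).

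In ACTR2 the cytoplasmic sum was 202 ± 34.9 CPM in mock and 192 ± 9.04 CPM after arsenite (SD, n = 3 each), with overlapping libraries. The largest peak was at 84.7 ± 12.1 and 103 ± 9.98 CPM, and chr2:65269513-65269533 at 24.7 ± 9.49 and 10.2 ± 5.88 CPM (SD, n = 3 each). At the largest peak the libraries overlapped. At chr2:65269513-65269533 they did not, and the share of all 3'UTR peaks that separate in this way is not given here. That peak had a pooled ratio of 0.424 (95% interval 0.287 to 0.619, counting error only). Its part of the cytoplasmic 3'UTR tags was 11.9% ± 2.66 in mock and 5.24% ± 2.89 after arsenite, while that of the largest peak was 42.1% ± 2.98 and 53.7% ± 6.04 (SD, n = 3 each). The chosen peak, chr2:65269928-65269948, held 20.8% ± 1.65 and 20.3% ± 2.997 (SD, n = 3 each). In the inputs the largest peak held 33.1% of 163 tags in mock (Wilson 95% interval 26.4% to 40.7%) and 38.3% of 553 after arsenite (34.4% to 42.5%).

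In the nuclear fraction the summed 3'UTR of ACTR2 was at 19.6 ± 0.700 CPM in mock and 34.4 ± 1.32 CPM after arsenite (SD, n = 3 each), without overlap, a pooled ratio of 1.77 (95% interval 1.28 to 2.48). Most of the added tags were at the largest peak, with 20 nuclear tags in mock and 63 after arsenite, while the chosen peak had 12 and 15. UFM1 had 7.88 ± 4.50 and 8.09 ± 4.31 CPM (SD, n = 3 each), with overlapping libraries. Intron levels in the nuclear fraction were lower after arsenite in every library of both genes than in any mock library. UFM1 introns had 17 tags in mock and 6 after arsenite, and ACTR2 introns 26 and 19. The nuclear minus cytoplasmic median over all intron sums was 0.48 in mock and 0.04 after arsenite. Over all 3'UTR sums it was -0.98 and -0.17, so many other genes shifted as well. The share of all sums whose nuclear libraries separate in this way is not given here, and whether these shifts are particular to UFM1 and ACTR2 was not tested.

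**Figure D3:**
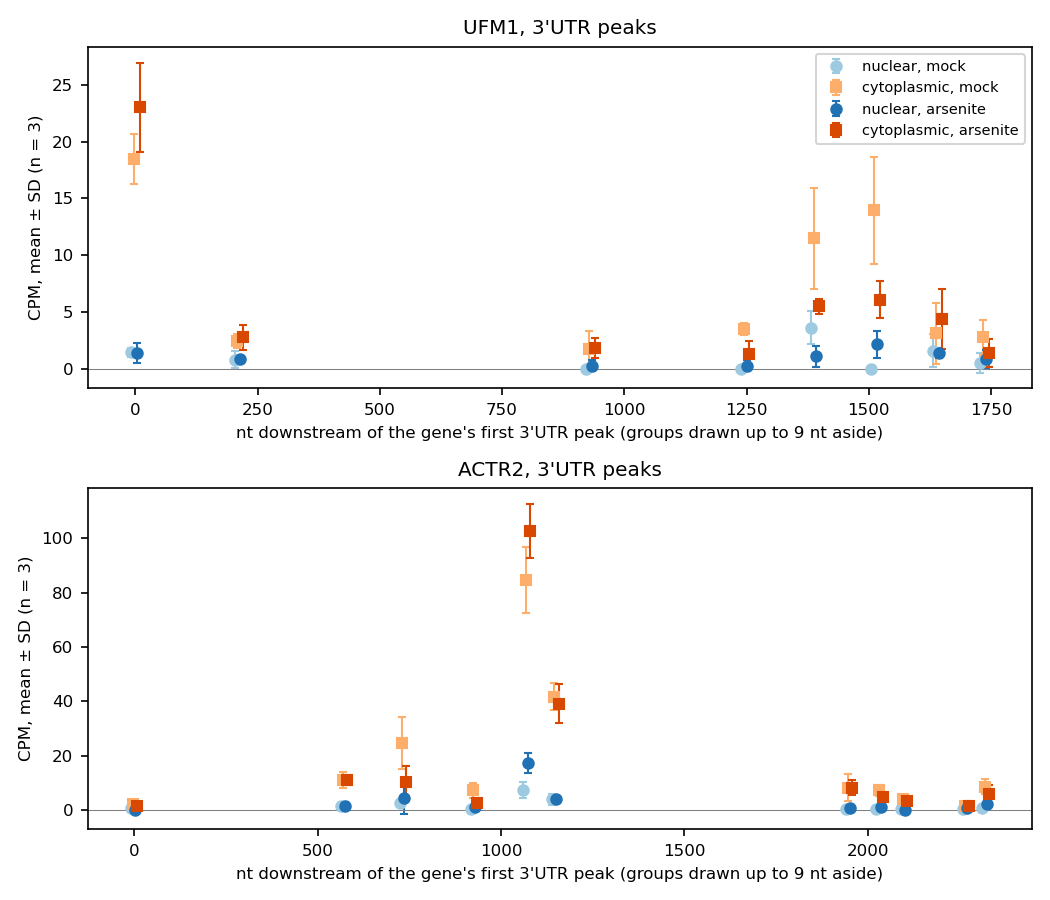
Mean CPM (± SD, n = 3 libraries) of each 3'UTR peak of UFM1 (top) and ACTR2 (bottom), against its distance in nt from the gene's first 3'UTR peak, in the 4 fraction groups. In the cytoplasmic fraction the first UFM1 peak has a higher mean after arsenite than in mock, with overlapping libraries. The UFM1 peak 1513 nt downstream is lower there after arsenite. In ACTR2 the peak at 1070 nt is the highest in all groups.

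Other genes of each pathway were counted from lists that, like the genes themselves, were chosen with earlier results of these data known. Of 10 genes of the UFM1 conjugation pathway, 5 had 3'UTR peaks and 4 were tested in the mock fractions. Of these, 3 were called higher in the cytoplasmic fraction, beside 49.4% of all 3'UTR sums. The median log2 difference was -1.76, against -0.98 over all 3'UTR sums. Count and median include UFM1, which was chosen for its cytoplasmic excess after arsenite. Besides UFM1 the called genes were UFL1 and SAYSD1. UFL1, the ligase, had 8.28 CPM in the nuclear and 41.8 CPM in the cytoplasmic fraction (-2.10 ± 0.26, SE, n = 3 each, limma adjusted p 3.61e-05). SAYSD1, a translocon-associated reader of UFM1 on stalled ribosomes, was at -1.43 ± 0.40 (SE, n = 3 each, limma adjusted p 0.016). None of the 4 tested intron sums of the list was called, where 26.8% of all intron sums were.

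Of the 10 Arp2/3 genes in the list, 8 had a tested 3'UTR sum. Of these, 5 were called higher in the cytoplasmic fraction (median -1.87), beside 49.4% of all 3'UTR sums. Count and median include ACTR2, which was chosen for its cytoplasmic excess after arsenite. After ACTR2 came ARPC1A at -2.80 ± 0.45, ARPC5 at -2.50 ± 0.30, ARPC4 at -2.05 ± 0.17 and ACTR3 at -1.68 ± 0.23 (SE, n = 3 each, limma adjusted p at most 3.84e-04). ACTR3 encodes ARP3, the partner of ARP2, and the ARPC genes encode the other subunits. ARPC3, ACTR3B and ARPC5L were not called, at -0.77, -0.39 and -0.12. Of the 10 intron sums 1 was called higher in the nuclear fraction, beside 25.1% of all intron sums: ACTR3 introns had 57.1 CPM in the nuclear and 30.1 CPM in the cytoplasmic fraction (0.89 ± 0.21, SE, n = 3 each, limma adjusted p 0.0059), which the ACTR2 introns did not show.

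Activators and inhibitors of Arp2/3 were called higher in the cytoplasmic fraction in 11 of 16 tested 3'UTR sums (median -1.60), beside 49.4% of all 3'UTR sums. CORO1C, a coronin, had 49.4 and 475 CPM (-3.20 ± 0.15, SE, n = 3 each, limma adjusted p 2.67e-08), and WASL, which encodes N-WASP, had 6.60 and 59.6 CPM (-2.78 ± 0.25, SE, n = 3 each, limma adjusted p 2.07e-06). In this list 3 of 15 intron sums were called higher in the nuclear fraction, near the 25.1% of all intron sums.

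After arsenite, limma called 4 of 10 tested 3'UTR sums of the Arp2/3 list and 2 of 4 of the UFM1 conjugation list higher in the cytoplasmic fraction, beside 9.89% of all 3'UTR sums. These counts include ACTR2 and UFM1, which had been chosen for that gap. The other called genes were ARPC4, with mean levels of 101.8 CPM in the nuclear and 203 CPM in the cytoplasmic fraction, ACTR3 (17.8 and 32.8 CPM), ARPC1A (3.80 and 12.7 CPM) and UFL1 (4.87 and 16.3 CPM). ARPC5, called in mock, had 18.9 and 21.7 CPM. Of the activators and inhibitors 2 of 16 were called, WASL (20.7 and 45.5 CPM) and GMFB (6.60 and 18.9 CPM). CORO1C had 149.7 and 132 CPM.

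**Figure D4:**
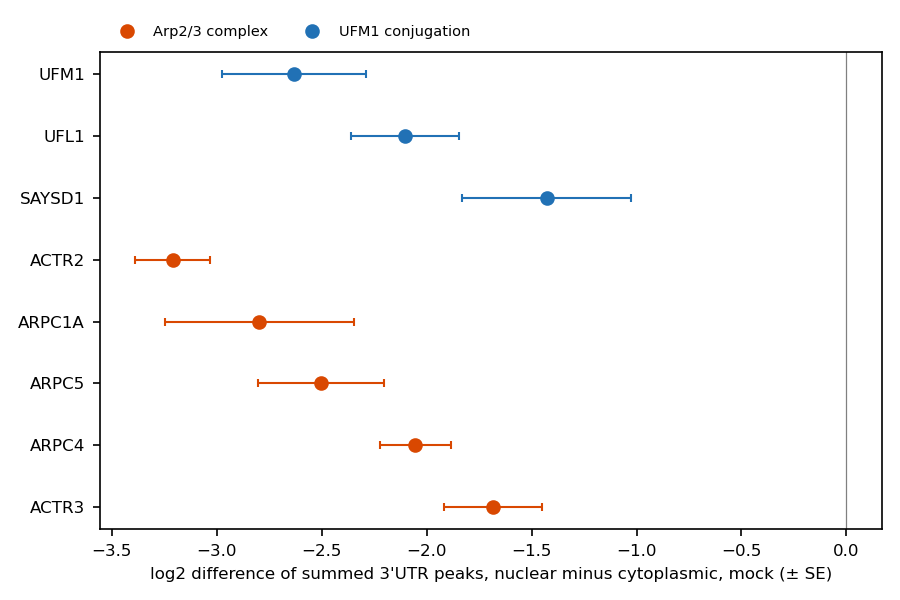
Log2 difference (nuclear minus cytoplasmic fraction, mock, ± SE, n = 3 each) of the summed 3'UTR peaks of the genes called by limma (adjusted p under 0.05) in the UFM1 conjugation list (blue, 3 of 4 tested) and the Arp2/3 list (orange, 5 of 8 tested); tested genes that were not called are not drawn. ACTR2 and UFM1 have the lowest value of their lists, at -3.21 and -2.63.

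The genes whose summed 3'UTR tags varied most like those of UFM1 over the 12 fraction libraries included TMEM144 and C11orf58 (Pearson's r of log2 values 0.966 and 0.960, among 1376 genes with at least 200 tags). For ACTR2 they were VTA1, SRP9 and RBM3 (r 0.989, 0.989 and 0.988). UFM1 and ACTR2 correlated with each other at 0.935. The 12 libraries form 4 groups of fraction and treatment in 1 library set, and correlations within groups were not computed. RBM3, for example, had mean levels of 93.2 and 704 CPM in the nuclear and cytoplasmic mock fractions and 164 and 499 CPM after arsenite.

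The input libraries, from unfractionated APEX cells, asked whether HuR tags on these mRNAs as a whole differ with arsenite. They were more frequent after arsenite at both 3'UTRs in most lines and sets, but the test over all inputs did not call them. In the deepest set, JL0388, UFM1 had 3.71 CPM in mock and 18.3 CPM after arsenite in NLS, 5.99 and 17.3 in NES, and 2.61 and 7.24 in G3BP. ACTR2 had 44.5 and 71.0 CPM in NLS, 34.8 and 76.7 in NES, and 44.4 and 60.3 in G3BP. Each line was higher after arsenite in both genes. By mean CPM the arsenite libraries were higher in 6 of 7 combinations of line and set for UFM1 and in 7 of 7 for ACTR2. Several combinations rested on few tags. The exception, G3BP in JL1024, had 1 mock and 5 arsenite tags, and there ACTR2 had 0 and 10. For NES in JL1024 UFM1 had 0 and 6 tags and ACTR2 3 and 5.

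Over all 9 arsenite and 8 mock inputs the arsenite minus mock log2 difference was 1.40 ± 0.66 for UFM1 and 1.39 ± 0.64 for ACTR2 (SE, limma adjusted p 0.567 for both), against a 3'UTR median of 0.47. Limma called none of the 11316 sums (0%), with 983 at an unadjusted p under 0.05. EdgeR's quasi-likelihood test on the recovered tags called 991 sums, among them both 3'UTRs, at 1.89 for UFM1 (adjusted p 4.31e-05) and 0.97 for ACTR2 (adjusted p 2.45e-04). Within JL0388 alone limma called both, at 1.33 ± 0.37 for UFM1 (adjusted p 0.017) and 0.72 ± 0.18 for ACTR2 (adjusted p 0.0057). In simulated inputs limma recovered 15 and edgeR 196 of 200 sums changed 4-fold. There limma also called 0 and edgeR 8 unchanged sums. The ACTR2 introns were at 0.22 ± 0.48 (SE, limma adjusted p 0.89), a direction that turned under other settings, and the UFM1 introns had too few tags to be tested.

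**Figure D5:**
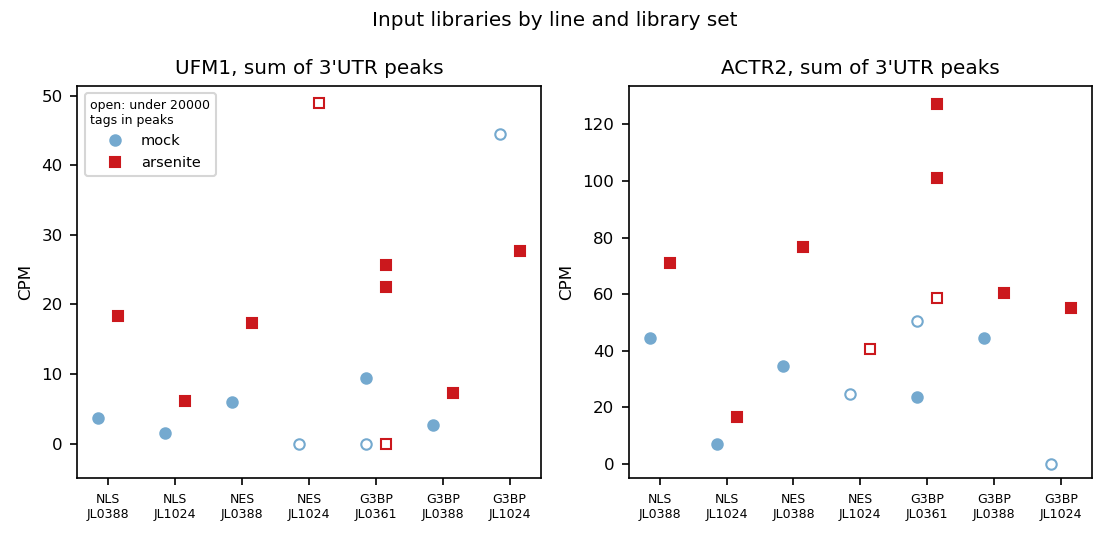
CPM of the summed 3'UTR peaks of UFM1 (left) and ACTR2 (right) in each input library, by APEX line and library set (names starting JL), after mock treatment (blue circles) or arsenite (red squares). Open symbols are libraries with fewer than 20000 tags in peaks. Within JL0388 the arsenite library is the higher one in every line for both genes.

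Enriched libraries held few tags on these genes. UFM1 had 40 3'UTR tags in the 29 enriched libraries, and its 3'UTR had tags in 1 of 4 libraries in each of the NLS and NES groups, in 3 of 6 G3BP mock and in 5 of 7 G3BP arsenite libraries. It had too few tags to be tested between NLS and NES. The ACTR2 3'UTR had 0 to 19.7 CPM in NLS mock, 1.91 to 27.7 in NLS arsenite, 0 to 79.3 in NES mock and 2.07 to 105 in NES arsenite libraries. These ranges overlapped. The NLS minus NES difference was -0.73 ± 0.64 (SE, 8 libraries each, limma adjusted p 0.36), whereas 6.63% of all 3'UTR sums were called. It was -2.40 ± 0.89 within JL0388 (SE, limma adjusted p 0.077) and of the opposite sign within JL1024, at 0.95 ± 0.57 (SE, limma adjusted p 0.27). With near-identical library pairs counted once it was -0.13 ± 0.65 (SE, limma adjusted p 0.90). With 17 3'UTR tags in each line, the pooled NES to NLS ratio could lie between 0.822 and 3.57.

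In the sets with both lines, both 3'UTRs had higher mean levels after arsenite in G3BP than in NES enriched libraries, without passing the test. ACTR2 had 105, 65.6, 2.07 and 5.31 CPM in NES (4, 5, 1 and 3 tags) and 192, 107, 34.2 and 149 CPM in G3BP (17, 3, 4 and 10 tags). The lines overlapped over both sets but not within either. The G3BP minus NES difference was 2.23 ± 0.76 (SE, n = 4 each, limma adjusted p 0.0795), and 5.52% of 3'UTR sums were called, around a median of 1.37. By limma it passed the threshold within JL1024 (3.69, adjusted p 0.032; 0.77 and adjusted p 0.56 within JL0388) and without NES arsenite replicate 1 (2.66, adjusted p 0.046). With near-identical library pairs counted once it was 2.83 ± 0.90 (SE, limma adjusted p 0.10). For UFM1 the NES libraries had 0, 0, 0 and 8.85 CPM and the G3BP libraries 33.8, 35.6, 0 and 29.9 CPM, on 5 and 6 tags. Its difference was 2.39 ± 1.22 (SE, n = 4 each, limma adjusted p 0.27). Scaling to tags in peaks lowered the 3'UTR median to 0.80 and ACTR2 to 1.39.

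Within the G3BP enriched libraries, arsenite and mock did not differ detectably at either gene. ACTR2 had a median of 37.4 CPM in mock (0 to 214.5, 6 libraries, 47 tags) and 66.8 CPM after arsenite (0 to 192, 7 libraries, 101 tags). UFM1 had a median of 3.31 CPM (0 to 158, 11 tags) and 14.9 CPM (0 to 35.6, 21 tags). The highest mock values came from libraries with 1 tag in the gene's 3'UTR. Arsenite minus mock differences were 0.60 ± 1.10 for ACTR2 and 0.65 ± 1.06 for UFM1 (SE, limma adjusted p 0.81 and 0.79), below the 3'UTR median of 1.31. Limma called none of 2560 sums (0%), with 415 at an unadjusted p under 0.05, and edgeR called 108. In simulated data of this depth limma found 0 and edgeR 85 of 190 tested sums changed 4-fold, and they called 0 and 9 unchanged ones. The direction depended on the libraries used. ACTR2 was at -0.06 without G3BP mock replicate 1 and at -0.54 within JL0388. UFM1 was at -2.21 within JL0361. Within JL0388 it was at 4.02 and past the threshold (limma adjusted p 0.009), but on 4 tags against 0 and with 1 near-identical library pair on each side, so it sets about 1 sample against 1.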

How the data were processed

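HuR CLIP-seq of 58 Huh-7.5 libraries was analysed. The authors deposited 1 table of signal per peak and library, each value being the tags in the peak divided by a library total (4662 to 2622677). This reading comes from the values: whole tags, within 0.01 tag, were recovered for 100% of values in every column. Bowtie2, SAMtools, bedtools and HOMER and the build GRCh38.p14 are named in the submitters' processing notes; their roles, the peak caller and the treatment of duplicate reads are not given in the sources used here. Of 395471 lines 8257 repeated another and were dropped. Peaks of 1 gene and annotation class were also summed; 84358 peaks carry no gene name.

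Peaks and sums were tested with limma 3.58.1 (R 4.3.3; lmFit, eBayes with trend) on log2(CPM + 2.28), the pseudocount being the typical (median) lowest value above 0 of a library, with the library set and line or treatment as covariates where a test spanned several. Units needed a tag in as many libraries as the smaller group has, or more, to be tested. P-values were two-sided and Benjamini-Hochberg adjusted over all units tested in a comparison (threshold 0.05). EdgeR 4.0.16 (quasi-likelihood, recovered tags, library totals as sizes) was an alternative; it called 5983 sums in the mock fractions, against 6155 by limma. Both were tested on simulated data. There, of 200 sums changed 4-fold, limma found 149 in the mock fractions, 65 in NLS against NES and 4 in G3BP against NES. Of 198 tested single peaks changed 4-fold in the mock fractions limma found 0 and edgeR 1, so a single peak that was not called may still differ.

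Pooled ratios have exact 95% conditional intervals; intervals cover counting error only. A fold against 0 tags was set against 3 tags over the group. Of 32 replicate pairs 5, in JL0388, showed no difference beyond counting noise over their 500 largest peaks. They were counted as 1 sample each in an alternative, and no mean with SD is given for their groups. Other steps used Python 3.11.15 with scipy 1.17.1, pandas 2.3.3, numpy 2.4.6 and statsmodels 0.14.6; figures were drawn in matplotlib 3.10.9.

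The members and gene lists were chosen with earlier results of these data known. Library values are given for the peaks that led to the choice, for peaks with at least 100 tags and for 3'UTR and intron sums; called genes of the UFM1 conjugation and Arp2/3 lists and the 3 most alike genes of each member are named, and other list genes were named after their values were seen. Single results of some list genes and of 1 alike gene are not reported here. Replicate numbers, from titles and descriptions, pair no samples by the labels.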

Additional observations from a re-analysis of the deposited data

Results flagged for a closer look

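In 12 of 28 groups of 4 to 10 libraries the highest library stood apart from the others by Dixon's criterion, which chance meets in about 1 in 20 groups; the others were mostly at 0. In 9 of them the library held 1 tag. For the UFM1 3'UTR the highest values were 4.93 CPM (1 tag) in NLS enriched mock replicate 1, 1.91 CPM (1 tag) in NLS enriched arsenite replicate 3 and 19.9 CPM (1 tag) in NES enriched mock replicate 2. They were 8.85 CPM (5 tags) in NES enriched arsenite replicate 4 and 158 CPM (1 tag of a library total of 6330) in G3BP enriched mock replicate 1. UFM1 introns reached 1.31 CPM (1 tag) in G3BP input mock replicate 3 and 4.93 CPM (1 tag) in NLS enriched mock replicate 1. They reached 6.35 CPM (6 tags) in G3BP enriched mock replicate 6 and 17.1 CPM (2 tags) in G3BP enriched arsenite replicate 6. ACTR2 introns reached 13.1 CPM (1 tag) in NES enriched arsenite replicate 2, 214.5 CPM (1 tag of 4662) in G3BP enriched mock replicate 4 and 8.54 CPM (1 tag) in G3BP enriched arsenite replicate 6.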

How the results depend on the processing

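The cytoplasmic excess of both 3'UTR sums in the mock fractions kept its direction and call in all 13 alternatives, with adjusted p of at most 0.0047 for ACTR2 and 0.034 for UFM1. Intron differences there lay near 0 and changed sign when single libraries were left out (-0.14 to 0.22 for ACTR2, -0.19 to 0.39 for UFM1). The sums called were 3840 to 5156 when 1 library was left out. For single peaks the count was 2943 with a pseudocount 4 times smaller, 24449 when only peaks non-zero in every library of a group were tested, 6759 with no filter, and 0 to 16620 when 1 library was left out. In the share of 3'UTR tags the difference was -39.0 to -33.1 points for UFM1 and -29.5 to -22.9 for ACTR2 when 1 library was left out. Between arsenite and mock inputs, edgeR called 991 sums, limma 10 within JL0361 and 512 within JL0388; UFM1 was then called by edgeR (1.89) and within JL0388 (1.33), and ACTR2 likewise (0.97 and 0.72). The ACTR2 intron difference was -0.14 by edgeR, -0.25 within JL0361 and -0.16 to 0.52 when 1 library was left out. Between NLS and NES, 712 sums were called with no filter, 628 when scaled to tags in peaks and 464 within JL1024, where ACTR2 was at 0.95. Between G3BP and NES the count, 71 as reported, was 156 and 7 with a pseudocount 4 times larger and smaller, 315 with the stricter filter, 24 with none, 0 when scaled to tags in peaks (217 at an unadjusted p under 0.05), 0 within JL0388 (697 unadjusted), 612 within JL1024 and 12 with near-identical pairs counted once. It was 0 to 120 when 1 library was left out. ACTR2 then passed the threshold with the larger pseudocount (1.72), the stricter filter (2.23) and within JL1024 (3.69), and lay at 1.53 to 2.69 when 1 library was left out. Between G3BP arsenite and mock, 76 sums were called with the stricter filter, 108 by edgeR and 1068 within JL0388. ACTR2 was at -0.54 within JL0388 and at -0.058 to 1.15 when 1 library was left out, and UFM1 at -2.21 within JL0361 and 4.02 within JL0388. That last value passed the threshold on 4 tags against 0, in libraries that are 1 near-identical pair on each side, so it sets about 1 sample against 1. The cause of these changes was not tested.

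With the replicate number as a block the mock fractions gave 5896 called sums and 3983 called peaks, with ACTR2 at -3.21 and UFM1 at -2.63, and it changed no call of either gene in these or the other comparisons. Deviations of same-numbered libraries correlated at 0.0014 to 0.019 in the 3 fraction pairs, 0.127 to 0.141 in the 2 input pairs and -0.032 to 0.106 in the enriched pairs, so the numbers were not taken to pair libraries. Depth limits the enriched libraries most: UFM1 had at most 9 3'UTR tags in any of them.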
